A study of Mus musculus with 14 samples.

Results

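The Hox genes were followed across sorted cell populations of the mouse mammary gland. Members were all genes that the array design names Hoxa, Hoxb, Hoxc or Hoxd with a paralogue number: 38 of 27670 genes on the array, measured by 49 of 41174 probes. They comprised 11 genes of the Hoxa cluster, 10 of Hoxb, 8 of Hoxc and 9 of Hoxd. Of these, 27 genes had 1 probe and 11 had 2. Each of 14 Agilent arrays, read in both dyes, held Cy5-labelled RNA of 1 sorted sample against Cy3-labelled Universal Mouse Reference RNA, which pools 11 mouse cell lines. Every value below is a log2 ratio of sample to that pool. Wild type FVB/N-J mice, virgin or pregnant, gave 6 groups of 2 arrays: P4 (CD24+CD29hi, labelled as enriched in mammary stem cells, MaSC), P5 (labelled as enriched in luminal progenitors) and P6 (CD24lo, labelled as differentiated mammary epithelial cells). The titles give P5 the same surface phenotype as P4, and how the gates differed is not stated there. Virgin FVB/N-Luciferase transgenic L2G85 mice gave 2 further groups of 1 array each, Lin-/GFPhi cells (labelled as MaSC enriched) and Lin-/GFPlo cells (labelled as MaSC depleted). The labels give neither the animals' ages and days of pregnancy, nor how many animals made up a sample, nor the cells in which the L2G85 transgene is active. They also do not say that replicates came from separate animals, so p-values cover the spread among the samples alone, and that spread may be technical.

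Hox genes encode transcription factors that bind DNA through a homeodomain and give cells their position along the body axis. In mammals they lie in 4 clusters, and genes of the same paralogue number in different clusters are the most alike in sequence. Low paralogue numbers mark anterior and high numbers posterior body regions, and many Hox proteins bind DNA together with Pbx and Meis cofactors. In the mammary gland, Hoxa9, Hoxb9 and Hoxd9 act together in growth of the epithelium during pregnancy, and Hox genes are active in both the epithelium and the surrounding stroma.

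Because the homeobox is shared, probes placed in it can resemble one another. Among the 49 member probes, 4 pairs of genes shared an exact run of at least 12 bases. The probes of 1 such pair are shown 5' to 3' as the scanner files give them, with the runs shared with another Hox gene's probe in capitals.
Hoxd10 probe: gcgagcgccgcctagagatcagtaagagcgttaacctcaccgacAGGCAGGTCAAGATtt
Hoxc12 probe: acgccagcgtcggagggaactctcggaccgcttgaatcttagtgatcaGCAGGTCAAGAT
The longest run, 22 of 60 bases, linked the probes of Hoxa9 and Hoxb3, and the Hoxd10 probe shared 14 bases with that of Hoxa9. Runs of up to 16 bases also linked Hox probes to probes of genes outside the family. The accession list of the Hoxb3 probe also names a Hoxd3 transcript. Values of Hoxa9, Hoxb3 and Hoxd10 are therefore uncertain to the extent that their transcripts bind each other's probes, which was not tested.

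Each population, taken singly, had 24 to 32 of the 38 Hox genes above background. Of the 38 genes, 17 had a probe well above background in Cy5 on all 14 arrays: Hoxa3, Hoxa4, Hoxa5, Hoxa6, Hoxa7, Hoxa9, Hoxb2, Hoxb5, Hoxb6, Hoxb7, Hoxb9, Hoxc4, Hoxc5, Hoxc6, Hoxc9, Hoxd3 and Hoxd12. Hoxb1 and Hoxc12 were well above background on no array. By population, the genes well above background on every array of the group numbered 30 in virgin P4, 25 in virgin P5 and 29 in virgin P6. In pregnant mice they numbered 32 in P4, 26 in P5 and 29 in P6. Among P4, P5 and P6, P5 thus had the fewest detected members in both conditions. The GFPhi array had 24 and the GFPlo array 26. Of all probes, 78.66% and 78.84% were well above background on the virgin P4 arrays, 78.75% and 80.99% in P5 and 73.35% and 82.41% in P6. On the pregnant arrays it was 86.69% and 82.21% in P4, 77.63% and 78.46% in P5, and 83.45% and 69.54% in P6. GFPhi had 69.08% and GFPlo 66.43%, so the Hox counts also depend on the arrays. By cluster, all 11 Hoxa genes were detected in pregnant P6 and on the GFPlo array. Virgin P4, virgin P6 and pregnant P4 had 10 of them, the GFPhi array 9, and virgin and pregnant P5 8. Hoxd members detected on every array ranged from 4 of 9 in virgin P5, GFPhi and GFPlo to 7 of 9 in both P4 groups. Detection depends on probe brightness as well as on transcript level, so probes of different genes were not ranked against each other.

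For tests, a probe had to be well above background on every array of at least 1 replicated group, and 34 Hox genes among 23646 genes qualified. Hoxb1, Hoxc12, Hoxd1 and Hoxd11 did not. Hoxc8 qualified through virgin P6 alone.

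**Figure D1:**
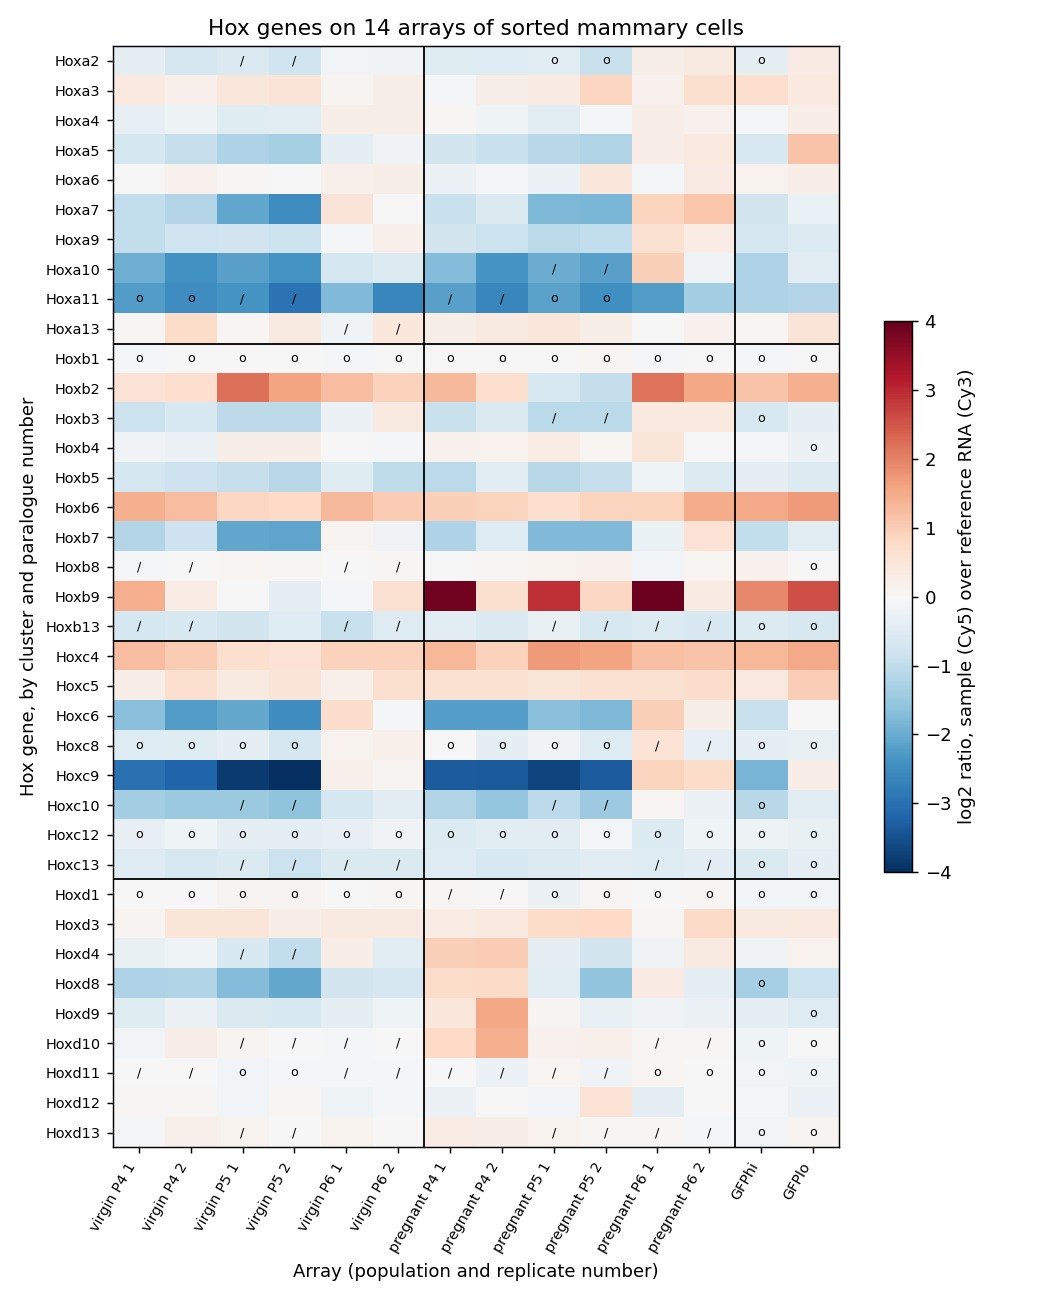
Log2 ratio of sample over reference for 37 of the 38 Hox genes (rows, by cluster and paralogue number) on each of the 14 arrays (columns), 1 probe per gene. A small o marks a group in which that probe was well above background on no array and a slash a group in which only 1 of 2 arrays was. Hoxc9, Hoxc6 and Hoxa10 are lower in P4 and P5 than in P6 in both conditions, and Hoxb9 is highest on the replicate 1 arrays of pregnant mice, at 2.93 to 3.92.

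The widest differences within the family set P4 and P5 apart from P6. In virgin mice 9 Hox genes were lower in P4 than in P6 and none was higher, where 10.4% of all genes tested were called in either direction, 4.91% higher and 5.5% lower. In P5, 11 were lower than in P6 and none higher, against 16.2% of all genes called, 7.32% higher and 8.83% lower. In pregnant mice 10 were lower and 2 higher in P4 than in P6, against 12.1% of all genes called, 6.2% higher and 5.88% lower. In P5, 13 were lower and none higher than in P6, against 26.9% of all genes called, 13.7% higher and 13.2% lower. The median log2 difference of the 34 Hox genes was -0.16 in virgin and -0.28 in pregnant mice for P4 minus P6, and -0.42 and -0.47 for P5 minus P6. The same medians over all genes were 0.03 and 0 for P4, and 0 and 0.05 for P5. The 4 comparisons share the P6 arrays in pairs, so they are given side by side and not as repeats of one another. In bulk samples such as these, fewer cells of a type and less RNA per cell cannot be told apart.

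Hoxc9, a gene of thoracic identity in the embryo, had the widest gap. Its log2 ratio was -2.98 and -3.19 on the virgin P4 arrays, -3.82 and -3.98 in virgin P5, and 0.21 and 0.12 in virgin P6. In pregnant mice it was -3.34 and -3.36 in P4, -3.68 and -3.33 in P5, and 0.89 and 0.73 in P6. All 4 arrays of P6 stood above all 8 of P4 and P5, with no overlap. The difference from P6 was -3.25 in virgin P4 (SE 0.157, 9.52-fold lower, adjusted p = 1.2e-05, limma) and -4.07 in virgin P5 (SE 0.157, 16.8-fold lower, adjusted p = 2.3e-06). In pregnant mice it was -4.16 in P4 (17.9-fold lower, adjusted p = 3.98e-06) and -4.32 in P5 (19.9-fold lower, adjusted p = 1.74e-06). Hoxc9 passed the test under each of 25 alternative settings in all 4 comparisons.

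Its cluster neighbours Hoxc6 and Hoxc10 were lower too. Hoxc6, another gene of the thoracic region, read -1.67 and -2.25 in virgin P4, -2.06 and -2.48 in virgin P5, and 0.70 and -0.09 in virgin P6. On the pregnant arrays it read -2.21 and -2.20 in P4, -1.67 and -1.80 in P5, and 0.96 and 0.22 in P6. Every P6 array exceeded every P4 and P5 array. These are differences of -2.26 (SE 0.334, adjusted p = 0.00296) for virgin P4, -2.57 (adjusted p = 0.000889) for virgin P5, -2.79 (adjusted p = 0.00082) for pregnant P4 and -2.32 (adjusted p = 0.00114) for pregnant P5. Hoxc10, which acts in lumbar patterning, differed less, by -0.85 to -1.30 across the 4 comparisons, and was called in each, although in virgin P4 the call was lost in 7 of 25 settings. In P5 the Hoxc10 probe was well above background on only 1 of 2 arrays in each condition. A second Hoxc10 probe gave -0.41 to -0.50 and was called in none. Hoxc4, Hoxc5, Hoxc8 and Hoxc13 were called in none of the 4.

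In the Hoxa cluster the called genes included anterior, central and posterior paralogues, none of them posterior to Hoxa10. Hoxa7, a gene of the neck and thorax, read -0.98 and -1.18 in virgin P4, -2.09 and -2.53 in virgin P5, and 0.51 and -0.03 in virgin P6. In pregnant mice it read -0.89 and -0.58 in P4, -1.79 and -1.83 in P5, and 0.88 and 1.12 in P6. The 3 populations did not overlap in either condition, with P5 lowest and P6 highest. Hoxa7 differed from P6 by -1.32 in virgin P4 (adjusted p = 0.00637), -2.55 in virgin P5 (adjusted p = 0.000104), -1.73 in pregnant P4 (adjusted p = 0.00133) and -2.81 in pregnant P5 (adjusted p = 4.76e-05).

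Hoxa10, known for its part in decidualisation of the uterus, read -1.96 and -2.43 in virgin P4, -2.18 and -2.40 in virgin P5, and -0.70 and -0.55 in virgin P6. In pregnant mice it read -1.72 and -2.37 in P4, -1.99 and -2.17 in P5, and 0.96 and -0.13 in P6. The P6 arrays lay above all P4 and P5 arrays, whereas P4 and P5 overlapped, and the pregnant P6 arrays lay 1.09 apart. Its differences from P6 were -1.57 (adjusted p = 0.0249), -1.66 (adjusted p = 0.0128), -2.46 (adjusted p = 0.00226) and -2.49 (adjusted p = 0.00108), in the same order of comparisons. In virgin mice both Hoxa10 calls were lost on leaving out any 1 of the 4 arrays compared. In pregnant P5 only 1 of the 2 arrays was well above background for Hoxa10.

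Hoxa5, which acts in the lung and the mammary epithelium, differed by -0.57 and -1.04 in virgin P4 and P5 and by -1.16 and -1.49 in pregnant P4 and P5. Hoxa9, of the paralogue group named above for the pregnant gland, differed by -0.97 and -0.89 in virgin and by -1.26 and -1.48 in pregnant mice. All of these passed the test, but the Hoxa5 call in virgin P4 (adjusted p = 0.0403) was lost in 16 of 25 alternative settings, among them the scanner's log ratio (adjusted p = 0.102) and leaving out any 1 array other than a pregnant P6 array. Hoxa2, a hindbrain gene, differed by -0.79 in pregnant P4 (adjusted p = 0.0225), a call lost on leaving out either pregnant P4 or either pregnant P6 array. In pregnant P5 its probe was not well above background on either array (mean -0.66, against 0.29 in P6, adjusted p = 0.00463), and no fold is given there. Hoxa2 was not called in virgin mice. Hoxa4 was called for P5 alone, at -0.68 in virgin (adjusted p = 0.0166) and -0.49 in pregnant mice (adjusted p = 0.0482), and its second probe gave -0.59 and 0.13, neither called. The pregnant call was lost in 19 of 25 settings, with -0.30 without pregnant P5 replicate 1 (adjusted p = 0.229) and -0.27 without scan 3 (adjusted p = 0.324), and the virgin call in 7 of 25. Hoxa3, Hoxa6, Hoxa11 and Hoxa13 were called in none of the 4 comparisons.

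The Hoxb cluster contributed fewer genes. Hoxb3, a hindbrain and neck gene, was lower than in P6 in all 4 comparisons, by -0.79 and -1.12 in virgin and by -1.14 and -1.48 in pregnant P4 and P5. Its call in virgin P4 (adjusted p = 0.0468) was lost in 15 of 25 settings, with -0.48 without virgin P6 replicate 2 (adjusted p = 0.223). In pregnant P5 the Hoxb3 probe was well above background on only 1 of 2 arrays. Hoxb7 was lower in P5 alone, with -2.07 and -2.12 on the virgin P5 arrays against 0.10 and -0.14 in virgin P6, and -1.78 on both pregnant P5 arrays against -0.26 and 0.58 in pregnant P6. The P5 arrays lay below all P6 arrays, and the differences were -2.07 (adjusted p = 0.00183) and -1.94 (adjusted p = 0.00185). In P4 Hoxb7 was intermediate, at -1.16 and -0.82 in virgin and -1.24 and -0.52 in pregnant mice, and P4 minus P6 was not called. Hoxb2 was lower than in P6 in pregnant P5 alone and is described with pregnancy.

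No Hoxd gene was called lower than in P6 in any of the 4 comparisons. The posterior members Hoxd9 and Hoxd10 were higher in pregnant P4 than in pregnant P6, by 1.19 (adjusted p = 0.0429) and 1.08 (adjusted p = 0.0108). The Hoxd9 call was lost in 14 of 25 settings, with 0.52 when slide was a block (adjusted p = 0.108) and 0.65 without pregnant P4 replicate 2 (adjusted p = 0.139). By region of the body axis, members called lower in pregnant P5 than in pregnant P6 were 4 of 6 anterior genes (paralogues 1 to 3), 5 of 15 central genes (4 to 8) and 4 of 13 posterior genes (9 to 13). In virgin P5 they were 2 of 6, 5 of 15 and 4 of 13. The 9 genes called in virgin P4 were among the 11 called in virgin P5 and among the 10 called lower in pregnant P4.

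**Figure D2:**
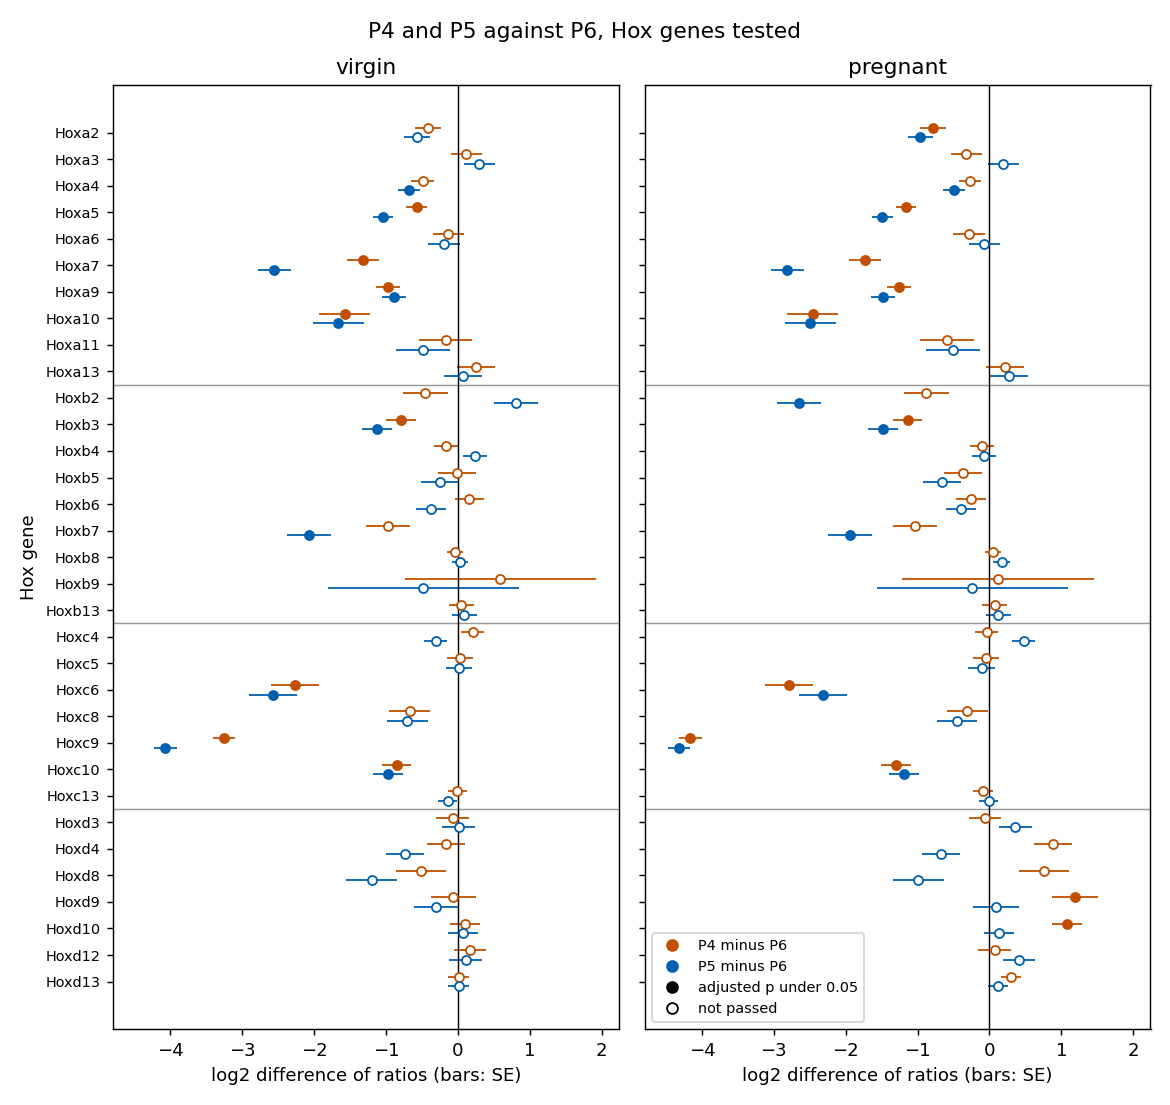
Log2 difference of P4 minus P6 (orange) and of P5 minus P6 (blue) for 33 of the 34 Hox genes tested, in virgin (left) and pregnant (right) mice; bars are standard errors of the limma fit, filled points passed an adjusted p of 0.05. Hoxc9 lies at -3.25 to -4.32 in every comparison, whereas the Hoxd genes at the bottom are never filled below 0.

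The P6 samples also differed from P4 and P5 in markers of cell type. The median log2 ratio of 8 fibroblast markers ranged from 4.24 to 4.72 on virgin and from 3.46 to 5.33 on pregnant P6 arrays. It ranged from -1.89 to -1.83 in virgin P4, from -1.89 to -1.87 in pregnant P4, from -2.82 to -2.55 in virgin P5 and from -2.28 to -2.03 in pregnant P5. All 8 of these markers were well above background on all 14 arrays. The median of 4 pericyte markers was likewise highest in P6, at 3.66 to 5.04 over its 4 arrays, against -0.09 to 2.77 in P4 and P5. The median of 8 luminal markers was -0.32 to 0.20 in virgin P6 and -2.34 to -1.79 in pregnant P6, the lowest of the 3 populations in each condition. P6 is labelled as differentiated epithelium, and these 3 marker lists ran against that label. The median of 5 hormone-sensing luminal markers was 1.71 to 2.62 in virgin P6, between virgin P4 (1.13 to 1.64) and virgin P5 (3.69 to 4.63). In pregnant mice it was -0.11 to -0.06 in P6, 0.24 to 0.54 in P4 and -0.13 to -0.07 in P5. Prrx1, a homeobox gene of mesenchyme, followed the split of the fibroblast markers. Its log2 differences from P6 were -3.72 and -5.23 in virgin P4 and P5 and -3.88 and -4.18 in pregnant P4 and P5. The part of these other cells in the Hox differences was not tested.

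The counts against P6 depended on single arrays most in virgin mice. With 1 array left out at a time, the virgin P4 count ranged from 3 to 9, being 3 without either virgin P4 array, 5 without virgin P6 replicate 1 and 4 without virgin P6 replicate 2. The virgin P5 count ranged from 8 to 13, the pregnant P4 count from 10 to 12 and the pregnant P5 count from 12 to 15. With median centring in place of loess, 1, 3, 5 and 6 genes were called in the 4 comparisons, and the 5 in pregnant P4 were 3 higher and 2 lower. Shares of all genes called under that setting are not given, so fewer calls need not be particular to Hox genes. Called genes kept their direction under that setting.

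Between P4 and P5 few Hox genes differed in virgin mice. There 3 were called, 2 higher and 1 lower in P4, where 11.4% of all genes were called, 6.58% higher and 4.8% lower. Hoxa7 was 2.35-fold higher in P4 than in P5 (log2 difference 1.23, SE 0.227, adjusted p = 0.0092) and Hoxc9 1.76-fold higher (0.82, SE 0.157, adjusted p = 0.0114). Hoxb2, a hindbrain gene, went the other way, at 0.59 and 0.66 in P4 and 2.20 and 1.57 in P5. The P5 arrays lay above both P4 arrays, a difference of -1.26 (SE 0.311, adjusted p = 0.0335). The call was lost on leaving out virgin P4 replicate 1 (adjusted p = 0.164), virgin P4 replicate 2 (0.145) or virgin P5 replicate 1 (0.214), and on leaving out either pregnant P5 array (0.0503). No member was called without virgin P4 replicate 1, 1 without virgin P5 replicate 2, and 5 without either pregnant P4 array. With the replicate number as a block within each condition, 6 were called: the same 3 and Hoxa5, Hoxb7 and Hoxc4. On the scanner's own log ratios 2 were called, both higher, and with median centring none. The 11.4% is of the main fit, and shares of all genes under these other settings are not given.

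In pregnant mice 6 Hox genes were higher and 1 was lower in P4 than in P5, against 22.6% of all genes called, 11.7% higher and 10.9% lower. Of the 6, 4 belonged to Hoxd. Hoxa7 was higher by 1.08 (adjusted p = 0.0103) and Hoxb2 by 1.77 (adjusted p = 0.00428), the reverse of its virgin difference. Hoxc4 was lower, with a difference of -0.52 (SE 0.16, adjusted p = 0.0489), a call that was lost on leaving out any 1 of the 12 arrays except pregnant P4 replicate 1 and that turned to 0.24, not called, with median centring. The count fell to 3 without pregnant P4 replicate 2, to 4 without pregnant P5 replicate 1 and to 3 without pregnant P5 replicate 2. The split was 9 higher and none lower on the scanner's log ratios, 4 and none with the local backgrounds as given, and 3 and none with median centring. The 22.6% is of the main fit, and shares of all genes under these other settings are not given. The 4 Hoxd genes are described next.

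Pregnancy was accompanied by higher Hoxd values in P4. Of the 34 Hox genes, 3 were higher in pregnant than in virgin P4 and none was lower, where 3.77% of all genes were called, 1.48% higher and 2.29% lower. All 3 were Hoxd genes: Hoxd4, Hoxd8 and Hoxd10. The median difference of the 7 Hoxd genes tested was 1.05, against -0.01 for Hoxa, 0.11 for Hoxb, 0.01 for Hoxc and -0.03 for all genes.

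Hoxd8, the neighbour of Hoxd9 in the cluster, read -1.25 and -1.19 in virgin P4 and 0.73 and 0.77 in pregnant P4. Its other groups lay lower than pregnant P4 on every array: -1.75 and -2.06 in virgin P5, -0.43 and -1.57 in pregnant P5, -0.75 and -0.66 in virgin P6, and 0.34 and -0.36 in pregnant P6. The rise in P4 was 1.96 (SE 0.352, 3.9-fold, adjusted p = 0.0225). For the only Hoxd8 probe the array annotation names no RefSeq mRNA. Hoxd4, a gene of the neck, read -0.29 and -0.17 in virgin P4 and 0.96 and 1.02 in pregnant P4. On no other array did it exceed 0.35. It rose by 1.22 (SE 0.263, 2.33-fold, adjusted p = 0.0433). That call was lost in 14 of 25 settings, among them slide as a block (adjusted p = 0.068), the scanner's log ratio (0.189) and leaving out scan 3 (0.148).

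Hoxd10, which acts in lumbar and hind limb patterning, read -0.10 and 0.26 in virgin P4 and 0.80 and 1.45 in pregnant P4, while its other 8 replicated arrays lay between -0.04 and 0.19. It rose by 1.05 (SE 0.211, 2.07-fold, adjusted p = 0.0337), and the call was lost in 11 of 24 settings. The Hoxd10 probe was well above background on 9 of 14 arrays in Cy5 and on 8 in Cy3. Only 3 of 8 groups had it so in Cy5 on every array, so part of its values near 0 lay close to background. Hoxd9 read -0.49 and -0.22 in virgin P4 and 0.45 and 1.54 in pregnant P4. These groups did not overlap, but the difference of 1.35 (SE 0.316) was not called (adjusted p = 0.0576), and with the replicate number as a block within each condition it was (adjusted p = 0.0239). The second Hoxd9 probe gave 0.88, not called (adjusted p = 0.153). Hoxd3, Hoxd12 and Hoxd13 were not called.

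Against pregnant P5, the same 4 genes were higher in pregnant P4: Hoxd4 by 1.56 (adjusted p = 0.00359), Hoxd8 by 1.75 (adjusted p = 0.00839), Hoxd9 by 1.10 (adjusted p = 0.0377) and Hoxd10 by 0.95 (adjusted p = 0.0127). The Hoxd9 call was lost in 13 of 25 settings, with 0.43 when slide was a block (adjusted p = 0.128) and 0.56 without pregnant P4 replicate 2 (adjusted p = 0.13). Without that array Hoxd10 was at 0.63 (adjusted p = 0.0508). This comparison shares the pregnant P4 arrays with the comparison to virgin P4. Whether the pregnancy effect was larger in P4 than in P5 was not settled for them: the difference of effects was 0.99 for Hoxd4 (adjusted p = 0.156), 1.06 for Hoxd8 (adjusted p = 0.253), 0.87 for Hoxd9 (adjusted p = 0.298) and 0.93 for Hoxd10 (adjusted p = 0.103), where 8.15% of all genes were called.

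Scan batch and condition were partly joined, since replicate 1 of the pregnant groups was scanned by itself. Within the shared scan, replicate 2 of pregnant P4 exceeded replicate 2 of virgin P4 by 1.19 for Hoxd4, 1.95 for Hoxd8, 1.76 for Hoxd9 and 1.20 for Hoxd10. The calls rested on few arrays: no member was called without virgin P4 replicate 1, virgin P4 replicate 2 or pregnant P4 replicate 2, and Hoxd8 alone was called without either virgin P5 array or either pregnant P5 array. With median centring none was called, the 3 differences staying positive. Beside this, the median of 5 adipocyte markers was 1.06 to 4.54 on the pregnant P4 arrays against 0.51 to 0.61 on the virgin P4 arrays, and that of 9 basal and myoepithelial markers was 3.69 to 6.13 against 4.38 to 4.98. Their part in the Hoxd values was not tested.

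**Figure D3:**
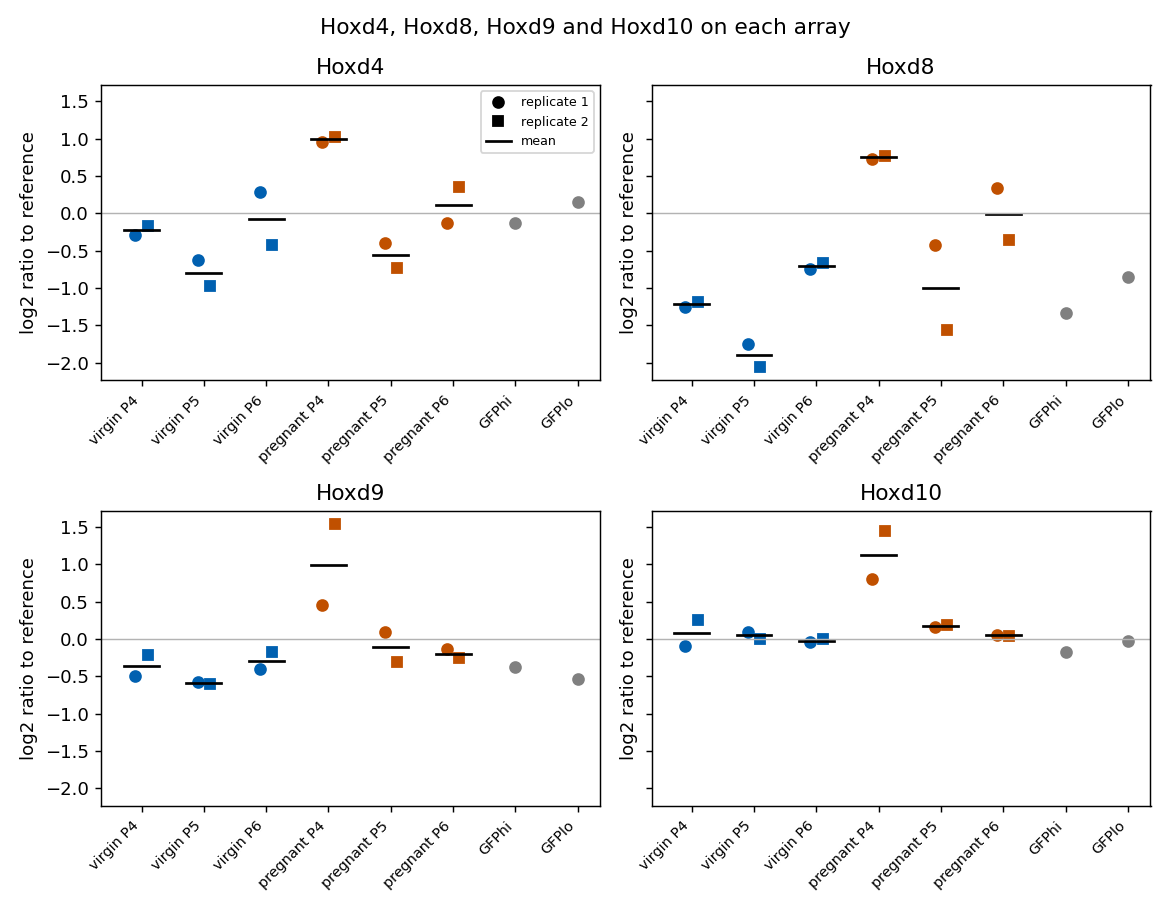
Log2 ratio to the reference of Hoxd4, Hoxd8, Hoxd9 and Hoxd10 on each array, by group; circles are replicate 1, squares replicate 2 and bars the mean of 2 arrays. For Hoxd4, Hoxd8 and Hoxd10 both pregnant P4 arrays lie above every other replicated array, with means of 0.99, 0.75 and 1.13.

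The 4 genes lie on chromosome 2 in the order Hoxd10, Hoxd9, Hoxd8 and Hoxd4 along the plus strand. Their 250 bases before the annotated start (RefSeq, GRCm38.p6) are shown because all 4 were called higher in pregnant P4 than in pregnant P5: chr2:74691641-74691890 for Hoxd10, chr2:74697513-74697762 for Hoxd9, chr2:74704365-74704614 for Hoxd8 and chr2:74721728-74721977 for Hoxd4. Capitals mark matches, on either strand, to the TATA box TATAAA, the STAT motif TTCNNNGAA, the steroid receptor half-site TGTTCT, the Pbx-Hox motif TGATNNAT or the nuclear receptor half-site AGGTCA.
Hoxd10: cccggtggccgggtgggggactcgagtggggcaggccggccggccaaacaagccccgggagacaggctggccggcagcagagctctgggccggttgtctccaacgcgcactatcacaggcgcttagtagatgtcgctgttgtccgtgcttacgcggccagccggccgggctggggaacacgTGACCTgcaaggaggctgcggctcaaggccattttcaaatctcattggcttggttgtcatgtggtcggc
Hoxd9: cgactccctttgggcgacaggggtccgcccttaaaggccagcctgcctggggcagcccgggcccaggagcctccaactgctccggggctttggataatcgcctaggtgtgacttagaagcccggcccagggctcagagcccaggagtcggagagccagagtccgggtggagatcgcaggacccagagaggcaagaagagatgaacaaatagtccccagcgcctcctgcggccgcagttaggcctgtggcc
Hoxd8: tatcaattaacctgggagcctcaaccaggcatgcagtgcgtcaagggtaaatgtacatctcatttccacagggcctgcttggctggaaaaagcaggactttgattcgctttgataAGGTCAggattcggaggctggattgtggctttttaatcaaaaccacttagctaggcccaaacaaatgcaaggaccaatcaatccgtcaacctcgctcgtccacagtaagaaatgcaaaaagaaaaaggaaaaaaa
Hoxd4: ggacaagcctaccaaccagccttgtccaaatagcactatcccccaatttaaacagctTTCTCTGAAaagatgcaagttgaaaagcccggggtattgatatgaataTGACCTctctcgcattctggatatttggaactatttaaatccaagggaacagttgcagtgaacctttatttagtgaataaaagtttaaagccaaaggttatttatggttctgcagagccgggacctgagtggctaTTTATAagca
AGGTCA occurred in 3 of the 4 windows (Hoxd10, Hoxd8 and Hoxd4) and in 14% of the 32851 promoters of the table. It occurred in 6 of the 22 Hox genes with a promoter there, the others being Hoxb4, Hoxc4 and Hoxd3. TTCNNNGAA and TATAAA occurred in the Hoxd4 window alone of the 4, and in 7% and 12.4% of all promoters. TGTTCT (16.1% of all promoters) and TGATNNAT (7.7%) were in none of the 4. These are matches of letters and no measure of binding.

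In P5, pregnancy went with a fall of Hoxb2 and a rise of Hoxc4, the 2 Hox genes called among 34, where 21.5% of all genes were called, 10.7% higher and 10.8% lower. Hoxb2 read 2.20 and 1.57 in virgin P5 and -0.64 and -0.95 in pregnant P5. Pregnant P5 was the lowest of all groups and virgin P5 among the highest, with pregnant P6 at 2.18 and 1.54. The fall was 2.68 on the log2 scale (SE 0.311, 6.41-fold, adjusted p = 0.000671), and it was called under each of 25 alternative settings. Within the shared scan the replicate 2 arrays differed by -2.52.

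In the other populations Hoxb2 was not lower in pregnancy: it read 0.59 and 0.66 in virgin and 1.30 and 0.66 in pregnant P4, and 1.24 and 0.91 in virgin and 2.18 and 1.54 in pregnant P6. The pregnancy effect differed among the 3 populations (F test, adjusted p = 0.0049, where 8.02% of all genes were called), by 3.03 between P4 and P5 (adjusted p = 0.00592) and by -3.47 between P5 and P6 (adjusted p = 0.00331, where 7.32% of all genes were called). Hoxb2 was also 6.29-fold lower in pregnant P5 than in pregnant P6 (adjusted p = 0.000368). A second probe named Hoxb2 lies on the opposite strand and was kept apart. It changed by -0.80 in P5, not called (adjusted p = 0.12).

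Hoxc4, a gene of the neck, read 0.63 and 0.57 in virgin P5 and 1.71 and 1.59 in pregnant P5, and on all other replicated arrays 0.91 to 1.33. Virgin P5 was thus the lowest group and pregnant P5 the highest. It rose by 1.05 in P5 (SE 0.16, 2.07-fold, adjusted p = 0.00251) and by 1.03 within the shared scan. The rise was not called with slide as a block (0.74, adjusted p = 0.0684) or with median centring (0.5, adjusted p = 0.723). The F test on its pregnancy effect passed narrowly (adjusted p = 0.049), with a difference of effects between P4 and P5 of -1.04 (adjusted p = 0.0283). That F test was not passed on leaving out any 1 array except pregnant P4 replicate 1, nor on the scanner's log ratios or with median centring, where the sign of the P4 to P5 difference turned to 0.12.

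Beside these changes, the median of 5 hormone-sensing luminal markers went from 3.69 to 4.63 on virgin P5 arrays to -0.13 to -0.07 on pregnant P5 arrays. The median of 8 luminal markers went from 4.27 to 4.31 to 2.11 to 2.50, and that of 4 fast skeletal muscle markers from 3.49 to 4.02 to -0.54 to 0.62. The part of these cells in the Hoxb2 and Hoxc4 values was not tested. With the replicate number as a block within each condition 5 Hox genes were called for pregnancy in P5 (these 2, Hoxa7, Hoxb9 and Hoxd8, all 4 besides Hoxb2 higher), and 4 for an effect differing among populations (Hoxb2, Hoxc4, Hoxc9 and Hoxd10). The Hoxb9 probe used read 2.93 on replicate 1 of pregnant P5, in the separate scan, and 0.84 on replicate 2. Shares of all genes called under that block are not given.

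**Figure D4:**
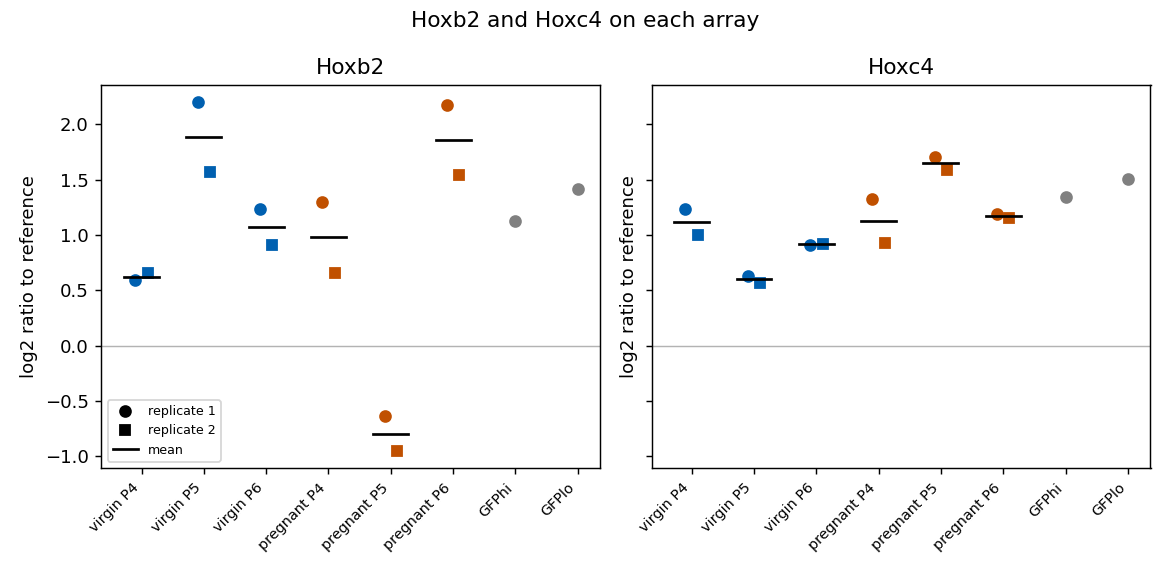
Log2 ratio to the reference of Hoxb2 and Hoxc4 on each array, by group; circles are replicate 1, squares replicate 2 and bars the mean of 2 arrays. In P5 Hoxb2 falls from a mean of 1.89 in virgin to -0.79 in pregnant mice, and Hoxc4 rises from 0.60 to 1.65.

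In P6 no Hox gene was called for pregnancy by limma, where 0.186% of all genes were, and 8 of the 34 had an unadjusted p under 0.05, as did 7.52% of all genes. The median difference of the 34 was 0.24, against -0.01 over all genes. With the replicate number as a block within each condition 3 were called, all higher (Hoxa7, Hoxa10 and Hoxc9), and with scan as a block 1 (Hoxa7). These block counts have no share of all genes beside them, as the 0.186% is of the fit without a block. Hoxa7 read 0.51 and -0.03 in virgin and 0.88 and 1.12 in pregnant P6, and Hoxc9 read 0.21 and 0.12 against 0.89 and 0.73. For both, the pregnant arrays lay above the virgin ones.

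Genes with 2 probes did not always give 1 answer. For Hoxb6 and Hoxb9 the array annotation names no RefSeq mRNA for the brighter probe and 1 for the dimmer probe. Which probe better measures the gene was not tested. The brighter Hoxb9 probe, used in the tests, read 3.85, 2.93 and 3.92 on the replicate 1 arrays of pregnant P4, P5 and P6, and 0.63, 0.84 and 0.32 on the replicate 2 arrays. On the virgin replicated arrays it ranged from -0.39 to 1.44, and on the GFPhi and GFPlo arrays it was 1.92 and 2.58. The 3 highest values all came from the arrays scanned by themselves. The dimmer Hoxb9 probe read -1.53, -1.14 and -1.70 on those replicate 1 arrays and did not stand apart. No comparison of Hoxb9 was called with either probe in the fit without a block. The brighter Hoxb6 probe ranged from 0.68 to 1.48 over the 12 replicated arrays and was called in no comparison. The dimmer one was lower in P5 than in P6, with differences of -1.33 in virgin (adjusted p = 0.0129) and -1.63 in pregnant mice (adjusted p = 0.00322). Fitting each probe by itself was chosen after seeing the data.

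**Figure D5:**
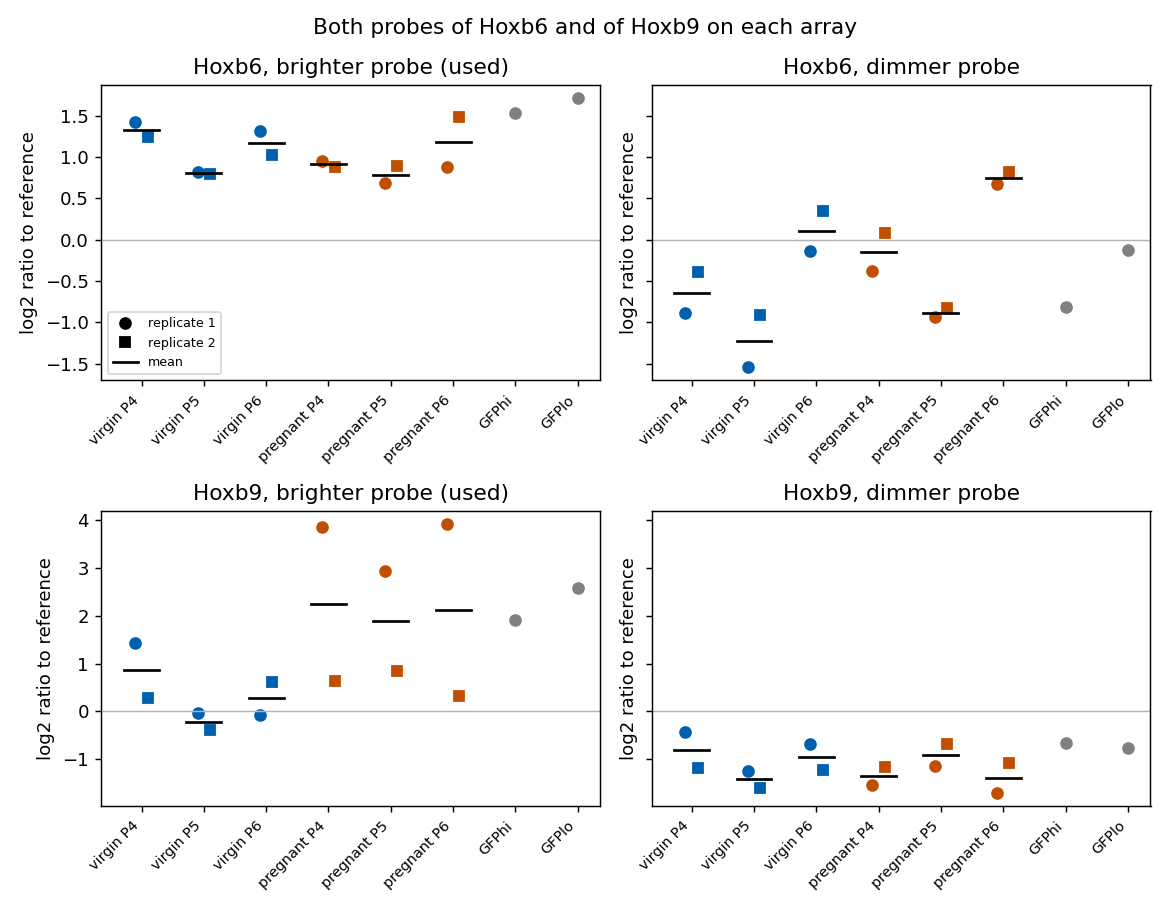
Log2 ratio to the reference of the 2 probes of Hoxb6 (top) and of Hoxb9 (bottom) on each array, by group, with the brighter probe on the left; circles are replicate 1, squares replicate 2 and bars the mean of 2 arrays. The brighter Hoxb9 probe reaches 2.93 to 3.92 on the 3 pregnant replicate 1 arrays, and its dimmer probe stays below 0 on every array.

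The GFP-sorted cells of L2G85 mice had 1 array each and so no test. Of the 34 Hox genes, 2 were lower by at least 1 log2 unit in GFPhi than in GFPlo and none higher, where 6.42% of all genes passed that size, 3.4% higher and 3.01% lower. Hoxc9 read -1.86 in GFPhi and 0.27 in GFPlo, a difference of -2.14. Hoxa5 read -0.60 and 1.13, a difference of -1.73. In sign, 27 of the 34 were lower in GFPhi, with a median difference of -0.23 against 0.01 over all genes. On the scanner's own log ratios 11 were lower by at least 1 log2 unit. The share of all genes passing that size on those ratios was not computed, so the 11 cannot be set against it. The fibroblast marker median was 0.65 in GFPhi and 3.68 in GFPlo, and its part in the difference was not tested.

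Of 9 genes for Hox cofactors of the Pbx, Meis and Pknox families, 5 were called in at least 1 comparison, as were 42.8% of all genes. Meis2 was lower than in P6 in each of the 4 comparisons, with differences of -1.58 and -2.25 in virgin P4 and P5 and of -1.88 and -1.64 in pregnant P4 and P5. Pbx3 was higher in P4 than in P5, by 1.84 in virgin (adjusted p = 0.000387) and 0.62 in pregnant mice (adjusted p = 0.039). Meis1 (-1.16) and Meis3 (-1.26) were lower in pregnant P5 than in pregnant P6, as log2 differences. In P5 pregnancy went with a fall of Meis1 by 1.49 and of Meis3 by 0.93 and a rise of Pbx3 by 0.65. No cofactor was called for pregnancy in P4 or P6, where 3.77% and 0.186% of all genes were called.

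Of 21 Trithorax and Polycomb genes, whose products keep Hox clusters active or silent, 4 were lower and none higher in pregnant than in virgin P5, where 21.5% of all genes were called and 10.8% were lower: the Polycomb genes Cbx7 (difference -2.47, adjusted p = 0.00163), Bmi1 (-1.59, adjusted p = 0.00254), Phc2 (-0.97) and Cbx8 (-0.52). In P4, where 2.29% of all genes were lower, the 1 gene lower was Kdm6b, at -1.64 (adjusted p = 0.0129). Kdm6b encodes a demethylase of the Polycomb mark. None of the 21 was called between P4 and P6, against 10.4% of all genes in virgin and 12.1% in pregnant mice. Of 14 genes beside the clusters, 1 was higher for pregnancy in P4, Smug1 by 0.83 (adjusted p = 0.0423), where 1.48% of all genes were higher. No gene listed beside the Hoxd cluster was called there. In P5, where 10.7% of all genes were higher, 2 of the 14 rose in pregnancy, Cbx5 by 1.66 and Ttll6 by 1.32. None of the 14 differed between populations in virgin mice, where 10.4% to 16.2% of all genes were called. In pregnant mice 1 was higher and 2 were lower in P4 than in P5, where 22.6% of all genes were called. Against pregnant P6, 2 were higher and 1 was lower in pregnant P5, where 26.9% were called. The lower one was Lnpk, listed beside the Hoxd cluster, at -1.4 (adjusted p = 0.0415, limma). None was called between pregnant P4 and P6.

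Of a list of 10 other patterning genes, 7 were tested. Msx2, a homeobox gene of the early mammary bud, was higher in virgin P5 than in virgin P4 by 3.20 and than in virgin P6 by 3.27, and it fell by 3.63 in P5 with pregnancy (adjusted p = 2.05e-05). Tbx3, a T-box gene without a homeobox that is needed for the mammary bud, fell by 5.02 in P5 with pregnancy (adjusted p = 3.4e-05). Msx1 rose there by 1.38 (adjusted p = 0.00096).

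Over the whole series the arrays' median Cy5 intensity ranged from 70.9 to 196, the local background of that dye being 32 to 34.5. Between 66.4% and 86.7% of the probes passed the scanner's detection flag. No member probe was saturated on any array, and no tested Hox value was missing in the fit. The arrays lay on 5 slides and were read in 3 scan batches. Scan 3, the replicate 1 arrays of pregnant mice, was made without the extended dynamic range.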

How the data were processed

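RNA of 14 sorted mouse mammary samples (Cy5) was hybridised against a common reference (Cy3) on Agilent arrays. The deposited scanner files give spot intensity in each dye, local backgrounds and flags, per the file headers. They also give a log10 ratio of Cy5 over Cy3 computed by the scanner software, per the file headers, and the authors deposited a series table of log2 ratios. Its columns matched the scanner ratios with correlations of 0.9903 to 1. Agilent Feature Extraction 9.5.3.1 was used, per the submitters' processing notes.

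Here, mean intensity was corrected with normexp (offset 50) after replacing outlier backgrounds (7 to 381 spots per array and dye, a step chosen after seeing the data), then normalised by loess within arrays. The brightest sense probe stood for a gene. A probe was kept if at least 1 replicated group had it above background (the Cy5 detection flag) on both arrays (34804 of 41174 probes, 23646 genes). One limma model (limma 3.58.1, R 4.3.3) over the 12 replicated arrays had a mean per group and 6 residual degrees of freedom. P-values are two-sided and adjusted by Benjamini-Hochberg over the 23646 genes, and "called" means an adjusted p under 0.05. The GFP arrays, 1 per group, had no test. The script was tested on simulated data. The number of arrays limits the precision.

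The Hox genes and the gene and marker lists were chosen with earlier results of these data known. Members called in a comparison were named, the 10 with the largest differences with values, and from the lists the called genes with the largest differences. Fitting each probe by itself and the pairwise differences of the pregnancy effect were chosen after seeing the data. Arrays with the same replicate number deviated together within a condition (correlations of 0.301 to 0.68 over 3 virgin pairs and 0.627 to 0.686 over 3 pregnant pairs) and not across conditions (-0.205 to 0.146 over 9 pairs). They shared a scan within a condition, so the number pairs arrays within a condition. Some genes and probe sequences counted here are not reported by name. Alternatives covered background, normalisation, filters, probes, slide, scan, replicate block and each array left out.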

Additional observations from a re-analysis of the deposited data

Results flagged for a closer look

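The pregnancy effect on Hoxb2 differed between P4 and P5 by 3.03 on the log2 scale (SE 0.439, adjusted p = 0.00592, limma), where Hoxb2 changed by 0.35 in P4 and fell by 2.68 in P5. Both pregnant P5 arrays lay below both virgin P5 arrays, and the difference was not called with median centring (3.64, adjusted p = 0.17 in the F test).

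The pregnancy effect on Hoxc4 differed between P4 and P5 by -1.04 (SE 0.226, adjusted p = 0.0283, limma), with a change of 0.01 in P4 and of 1.05 in P5. Its F test had an adjusted p of 0.049 and was the less stable of these 2 results.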

How the results depend on the processing

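Of 65 differences of single genes over 25 settings each where they could be fitted, 1320 values kept direction and call, 252 lost the call, 6 gained it and 2 changed sign. Both sign changes were of Hoxc4 under median centring: 0.24 for pregnant P4 minus P5 and 0.12 for the pregnancy effect in P4 minus P5. The cause was not tested.

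The count of Hox genes called, by comparison, moved as follows. Shares of all genes given earlier are of the main fit, so the counts under other settings have none beside them. For virgin P4 minus P5 (3), it was 0 with median centring, 7 with slide as a block, 6 with scan as a block, 6 with the replicate block within each condition, 5 with the replicate block over both conditions, 5 without scan 3 and 5 with only the arrays compared. For virgin P4 minus P6 (9), it was 5 with local backgrounds as given and 1 with median centring. For virgin P5 minus P6 (11), it was 3 with median centring. For pregnant P4 minus P5 (7), it was 4 with local backgrounds as given, 3 with median centring and 3 with only the arrays compared. For pregnant P4 minus P6 (12), it was 5 and 3 under the last 2 settings. For pregnant P5 minus P6 (13), it was 6 with median centring.

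For pregnancy in P4 (3), it was 0 with median centring and 1 with only the arrays compared. For pregnancy in P5 (2), it was 1 with median centring, 5 with scan as a block and 5 with the replicate block within each condition. For pregnancy in P6 (0), it was 1 and 3 under those blocks. For the F test (2), it was 1 with local backgrounds as given, the scanner log ratio, the series table or the Cy3 filter, 0 with median centring, and 4 with the scan block or the replicate block within each condition. The F test was not run on only the arrays compared. For GFPhi minus GFPlo (2), it was 11 with the scanner log ratio or the series table. The replicate block changed no other count by over 1.5 times.

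With each of 12 arrays left out in turn, the counts ranged from 0 to 5 (virgin P4 minus P5), 3 to 9 (virgin P4 minus P6), 8 to 13 (virgin P5 minus P6), 3 to 8 (pregnant P4 minus P5), 10 to 12 (pregnant P4 minus P6), 12 to 15 (pregnant P5 minus P6), 0 to 3 (pregnancy in P4), 2 to 3 (in P5), 0 to 0 (in P6) and 1 to 4 (F test). Scaling moved the median over all genes by over 0.1 in 4 comparisons. It went from -0.05 to -0.17 with the scanner log ratio and to 0.08 with median centring (pregnant P4 minus P5), from 0.05 to 0.16 with the scanner log ratio (pregnant P5 minus P6), and with median centring from 0 to 0.16 (pregnant P4 minus P6) and from -0.03 to 0.14 (pregnancy in P4). With 2 arrays a group, and with dim probes close to background, small differences could not be shown.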
